A study of Homo sapiens with 15 samples.

Results

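The 10 genes described here encode the BCR-ABL kinase and the proteins that dock to it or act directly behind it: BCR, ABL1, GRB2, GAB2, CRKL, SOS1, SHC1, CBL, PTPN11 and INPP5D. They were chosen by name, with symbols mapped from the Ensembl identifiers of the count table, and are 10 of its 60649 genes. All 10 passed the filter on low counts, which kept 23711 genes. mRNA was sequenced from K-562 cells, an established human line of chronic myeloid leukaemia, which carries the BCR-ABL1 fusion. Cells were left untreated or were exposed for 24 h to 0.15, 0.25, 0.5 or 1 µM martinostat, an inhibitor of histone deacetylases, with 3 libraries per group and 15 in all. Totals ran from 23755510 to 32805574 counts per library. All values come from 1 cell line, and the labels call the 3 libraries of a group biological replicates, so p-values measure the spread between these libraries. In such bulk libraries fewer cells of a type and less RNA per cell cannot be told apart.

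BCR-ABL is a constitutively active tyrosine kinase in which the N-terminal part of BCR brings ABL molecules together, so that they phosphorylate each other and their partners. A phosphotyrosine in the BCR part is a docking site for GRB2, an adaptor that carries the guanine nucleotide exchange factor SOS1 to RAS and the scaffold GAB2 to the complex. GAB2 in turn recruits the phosphatase PTPN11 (SHP2) and phosphoinositide 3-kinase. SHC1 is a further adaptor upstream of GRB2, CRKL is an adaptor whose phosphorylation is a common read-out of BCR-ABL activity, CBL is a ubiquitin ligase that limits kinase signalling, and INPP5D (SHIP1) is a lipid phosphatase that removes the product of phosphoinositide 3-kinase.

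K-562 cells join exon 14 of BCR to exon 2 of ABL1, a fact from textbooks that gene-level counts cannot show. The exon ends that meet at this joint are printed because they mark which part of each gene the fusion transcript can contribute to the counts. They lie at chr22:23290384-23290413 on the plus strand (the last 30 bases of BCR exon 14) and at chr9:130854064-130854093 on the plus strand (the first 30 bases of ABL1 exon 2) of the hg38 genome. Capitals mark the 12 bases next to the joint.
BCR exon 14 end: actcagccactggatttaAGCAGAGTTCAA
ABL1 exon 2 start: AAGCCCTTCAGCggccagtagcatctgact
A transcript joined in this way keeps 47.7% of the 6783 bases of the BCR transcript with 23 exons, and 95.1% of the 5578 bases of the ABL1 transcript with 11 exons. The counts of BCR and of ABL1 therefore pool fusion transcripts with those of the unfused genes, and the shares cannot be told apart here.

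In untreated cells the members spanned a wide range of expression. Per kilobase of exon, CRKL stood highest at 227 ± 3.25 CPM (CPM are counts scaled to a common library size by TMM, mean ± SD, n = 3 throughout). ABL1 followed with 84.4 ± 7.16, GRB2 with 50.1 ± 3.78 and BCR with 36.2 ± 3.08 CPM per kilobase. PTPN11 held 28.5 ± 0.655, SHC1 22.4 ± 1.69, GAB2 19.2 ± 2.72 and CBL 11.2 ± 0.763 CPM per kilobase. At the low end were SOS1 with 3.05 ± 0.168 and INPP5D with 0.701 ± 0.0758 CPM per kilobase. SHC1 and GAB2 were the neighbours in this order whose libraries overlapped. The length used is the union of all annotated exons, so genes with many annotated exons that the cells do not use sit too low in this order.

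The libraries and their labels were checked first. Of 10 erythroid markers, all had counts in untreated cells and their summed level was 3621 to 3951 CPM. The embryonic globin HBE1 was near 0, but most of its exon bases lie under other genes of the same strand. The same holds for HBG2, also in this sum. Whether this overlap lowered the counts of HBE1 and HBG2 was not tested, so the low value does not show that HBE1 is silent. CDKN2A and CDKN2B, which K-562 cells have lost, had 0 counts in untreated libraries. CDKN2A had 8 counts in the 0.25 µM group, all of them in replicate 1 (0.271 CPM). The erythroid sum was 1747 to 1880 CPM at 0.15 µM, 1086 to 1384 at 0.25 µM, 642 to 972 at 0.5 µM and 862 to 998 CPM at 1 µM. Markers of other cell types moved with dose as well. The 3 fibroblast markers summed to 21.8 to 25.5 CPM without drug and to 306 to 492 CPM at 1 µM, the 2 monocyte markers to 0.386 to 0.978 and 22.8 to 31.4 CPM, and the 2 epithelial markers to 130 to 148 and 19.9 to 23.5 CPM. Single markers did not all follow these sums: at 1 µM the epithelial EPCAM was called lower and CDH1 higher, and of the fibroblast markers COL1A1 and PDGFRB were called higher and COL1A2 lower. The 3 T cell markers summed to 3.55 to 5.07 CPM without drug, 16.6 to 23.3 CPM at 0.15 µM, 10.5 to 16.8 CPM at 0.25 µM and at most 4.29 CPM at 1 µM. The 3 B cell markers, of which MS4A1 was at 0 in untreated cells, summed to 2.28 to 4.70 CPM without drug. With drug their sum was 5.66 to 8.26 CPM at 0.15 µM, 3.33 to 7.25 at 0.25 µM, 6.12 to 8.39 at 0.5 µM and 8.27 to 8.98 CPM at 1 µM. The part of these changes in the results was not tested. On the third principal component (4.47% of the variance) replicate 3 of 0.25 µM scored 70.1 and replicate 3 of 0.5 µM 75.4, apart from all other libraries at -42.5 to 16.0, so results that rest on them are also given without both.

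Against untreated cells, CRKL and PTPN11 fell at each of the 4 doses, GAB2 and INPP5D rose at the lowest dose and fell at 0.5 and 1 µM, BCR fell from 0.25 µM on, and SHC1 and CBL rose at 0.5 and 1 µM. ABL1 fell at 0.25 and 0.5 µM. GRB2 and SOS1 passed the test at no dose in this fit, though GRB2 at 1 µM was called higher in 12 of 27 alternatives. A gene was called at an adjusted p under 0.05 (edgeR's quasi-likelihood test, Benjamini-Hochberg, over all 23711 genes). By this rule 2 members were higher and 2 lower at 0.15 µM, where 51.2% of all genes were called (31.9% higher, 19.4% lower). At 0.25 µM 1 was higher and 4 were lower (all genes 62.3%, with 37.4% higher and 24.8% lower). At 0.5 µM 2 were higher and 6 lower (66.9%, with 39.4% and 27.6%), and at 1 µM 2 were higher and 5 lower (66.2%, with 38.8% and 27.5%). In either direction 4, 5, 8 and 7 of the 10 members were called, close to the background shares, and so few members allow no finer reading. The median log2 fold change of the 10 members was -0.09, -0.04, -0.47 and -0.36 in order of dose, beside 0.28, 0.32, 0.34 and 0.32 over all genes tested. The latter depend on the filter. In a separately scaled fit of the 14096 genes with at least 10 counts in every library, the medians over all genes were 0.04, 0.05, 0.07 and 0.05. In the test of any difference among the 5 groups 8 members were called, all but ABL1 and SOS1, beside 73.6% of all genes.

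**Figure D1:**
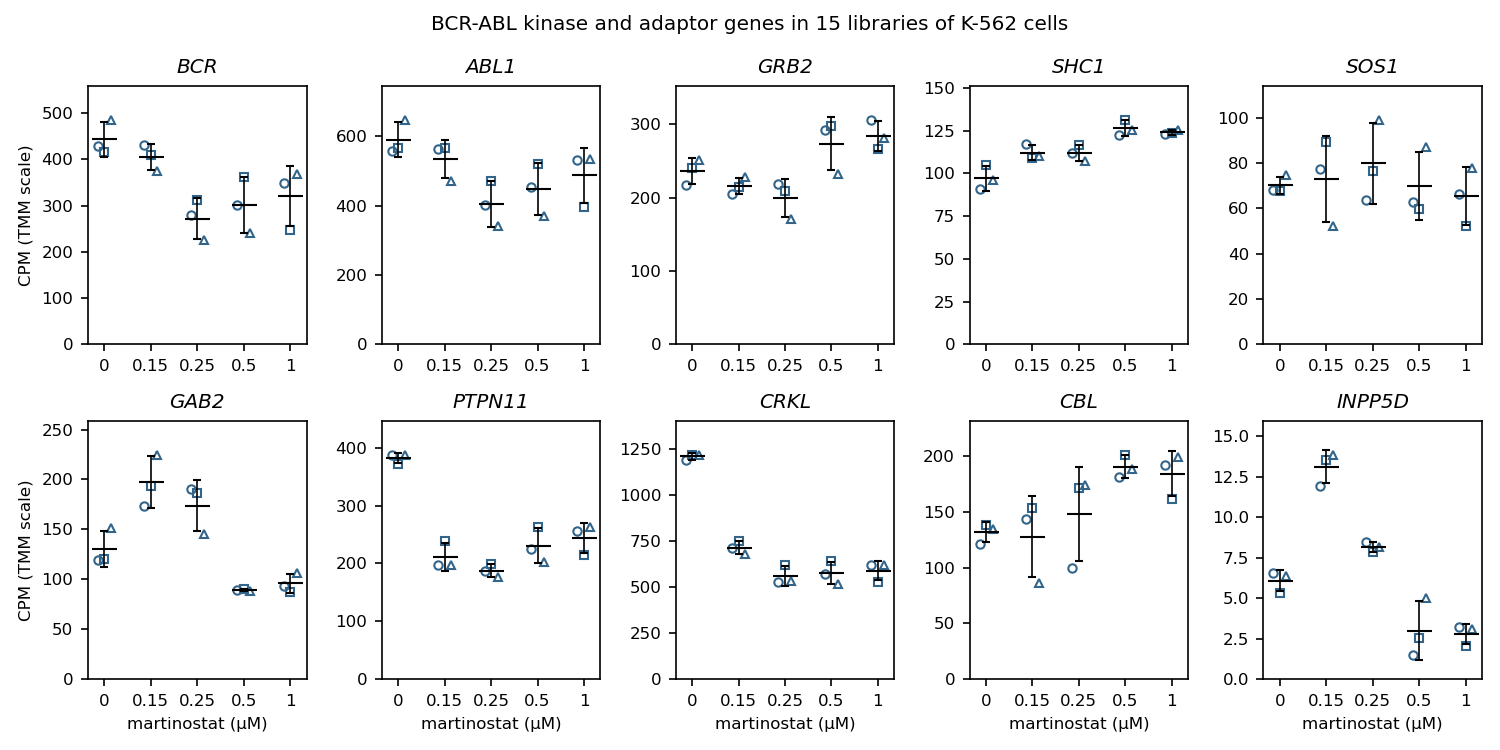
CPM on the TMM scale (y axis, from 0) of the 10 members in each of 15 libraries by martinostat dose in µM (x axis, 0 is untreated). Circles, squares and triangles are replicates 1, 2 and 3, and the bars give mean ± SD of 3 libraries. CRKL and PTPN11 sat lower at each dose than in untreated cells, while GAB2 and INPP5D peaked at 0.15 µM.

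These directions depend in part on how libraries are scaled. TMM assumes that most expressed genes do not change. Scaled by library totals alone, the median over all genes moved to 0.64, 0.85, 0.72 and 0.67 on the log2 scale. The members called higher and lower then numbered 3 and 2 at 0.15 µM, 6 and 2 at 0.25 µM, 3 and 2 at 0.5 µM and 3 and 2 at 1 µM. CRKL and PTPN11 were the 2 lower members at each dose. Of all 23711 genes, 9582 were then higher and 2118 lower at 0.15 µM, and 11697 and 3067 at 0.25 µM. At 0.5 µM the counts over all genes were 11097 and 4713, and at 1 µM 10808 and 4777. With TMM factors taken only from genes averaging 10 CPM or more, the members numbered 3 and 2, 5 and 2, 3 and 2, and 3 and 1. Over all 23711 genes these factors gave 9074 and 2891, 11182 and 3673, 11394 and 4630, and 11102 and 4738. With RLE scaling 3 members were higher and 4 lower at 1 µM, beside 9485 and 6236 of all genes. Each member is therefore given below on the TMM scale, with the values by library totals beside it.

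**Figure D2:**
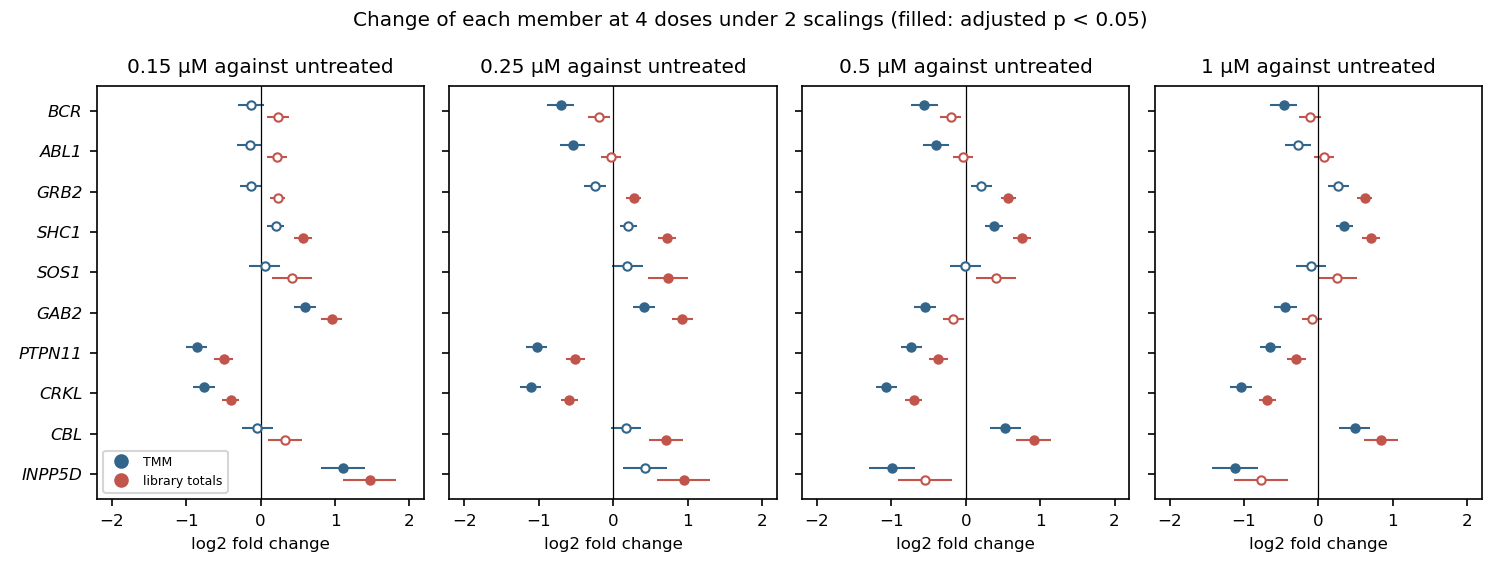
Log2 fold change against untreated cells (x axis, 0 is no change) of the 10 members at 4 doses, with TMM scaling in blue and library totals in red. Bars are ± SE from edgeR and filled points have an adjusted p under 0.05. Library totals shift all members to the right, and CRKL and PTPN11 stay filled to the left of 0 in all 4 panels.

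BCR, the fusion partner that supplies the promoter and the oligomerisation domain, lies at chr22:23179704-23318037 (hg38, plus strand). Its level was 429, 415 and 486 CPM without drug and 431, 409.9 and 376 CPM at 0.15 µM. It was 279, 313 and 225 CPM at 0.25 µM, 302, 361 and 239.9 CPM at 0.5 µM, and 349, 247 and 369 CPM at 1 µM. All libraries from 0.25 µM on were below all untreated ones, while those of 0.15 µM overlapped them. The log2 fold changes were -0.70 ± 0.18 (SE) at 0.25 µM, -0.56 ± 0.18 at 0.5 µM and -0.46 ± 0.18 at 1 µM, with adjusted p of 0.00245, 0.0108 and 0.0306 (edgeR's quasi-likelihood test, Benjamini-Hochberg). At 0.15 µM the log2 fold change was -0.13 ± 0.18 and was not called. By library totals it was 0.23 at 0.15 µM and -0.19, -0.20 and -0.11 at the other doses, and no dose was called. In 11 of 27 alternatives BCR at 1 µM was not called, including RLE scaling (-0.40, adjusted p = 0.0527) and DESeq2 (-0.40, adjusted p = 0.0537). It was also lost without untreated replicate 1 (-0.49, adjusted p = 0.0527), without untreated replicate 3 (-0.39, adjusted p = 0.112) and without 1 µM replicate 2 (-0.31, adjusted p = 0.170) in edgeR. Without replicates 3 of 0.25 and 0.5 µM, which had the lowest BCR values of their groups, the log2 fold changes were -0.56 at 0.25 µM and -0.38 at 0.5 µM, and both were called.

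ABL1, the tyrosine kinase itself, lies at chr9:130713043-130887675 (hg38, plus strand). Its 3 untreated libraries held 557, 566 and 648 CPM, followed by 563, 567 and 469.9 CPM at 0.15 µM. At 0.25 µM it stood at 403, 471 and 341 CPM, at 0.5 µM at 453, 519 and 371 CPM, and at 1 µM at 533, 396 and 533 CPM. The libraries from 0.25 µM on were all below the untreated ones, as for BCR. Its log2 fold change was -0.54 ± 0.17 at 0.25 µM (adjusted p = 0.0105) and -0.40 ± 0.17 at 0.5 µM (adjusted p = 0.0487) (edgeR's quasi-likelihood test, Benjamini-Hochberg). At 0.15 and 1 µM the differences were -0.15 ± 0.17 and -0.28 ± 0.17 and were not called. By library totals the 4 values were 0.22, -0.03, -0.04 and 0.08 and none was called. In 22 of 27 alternatives the 0.5 µM call disappeared, including without replicates 3 of 0.25 and 0.5 µM (-0.24, adjusted p = 0.124 in edgeR), and that at 0.25 µM without untreated replicate 3 (-0.48, adjusted p = 0.0502).

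GRB2 (chr17:75318076-75405709, hg38, minus strand), the adaptor that links the kinase to RAS, stayed within 171 to 306 CPM. Its libraries held 217, 241 and 252 CPM in untreated cells, 205, 215 and 228 at 0.15 µM, 219, 209 and 171 at 0.25 µM, 292, 297 and 232 at 0.5 µM, and 306, 266 and 282 CPM at 1 µM. The 1 µM libraries were all above the untreated ones. Against untreated cells the log2 fold changes were -0.13 ± 0.14, -0.24 ± 0.14, 0.21 ± 0.14 and 0.27 ± 0.14 in order of dose, none of them called, and the 95% interval at 1 µM ran from -0.05 to 0.59. By library totals the values at 0.15 and 0.25 µM turned to 0.23 and 0.27 and those at 0.5 and 1 µM were 0.57 and 0.62, with calls at 0.25, 0.5 and 1 µM. At 1 µM GRB2 was also called with RLE scaling (0.33, adjusted p = 0.0468), in DESeq2 (0.33, adjusted p = 0.0297) and with only the compared libraries (0.33, adjusted p = 0.00486). Without replicates 3 of 0.25 and 0.5 µM it was called at 0.5 µM (0.36, adjusted p = 0.0102) and at 1 µM (0.31, adjusted p = 0.0117) in edgeR. Between doses GRB2 was higher at 0.5 than at 0.25 µM by 0.45 ± 0.14 (adjusted p = 0.0212) and higher at 1 than at 0.15 µM by 0.40 ± 0.14 (adjusted p = 0.0297) in log2 units (edgeR's quasi-likelihood test, Benjamini-Hochberg). The first of these calls was lost without 0.25 µM replicate 3 (0.38, adjusted p = 0.0607), 0.5 µM replicate 1 (0.41, adjusted p = 0.0853) or 0.5 µM replicate 2 (0.39, adjusted p = 0.0919). The second was lost without 0.15 µM replicate 1 or 2 (0.36 and 0.39) or 1 µM replicate 1 or 3 (0.34 and 0.40), with adjusted p of 0.0677 to 0.122 in edgeR.

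SHC1 (chr1:154962298-154974395, hg38, minus strand), which passes receptor and kinase signals to GRB2, held 90.6, 105 and 96.0 CPM in untreated cells. It held 117, 109 and 110.0 CPM at 0.15 µM and 112, 117 and 107 CPM at 0.25 µM. At 0.5 µM the values were 123, 131 and 125 CPM and at 1 µM 123, 124 and 125 CPM. The treated libraries all lay above the untreated ones, at each dose. The log2 fold change was 0.38 ± 0.12 at 0.5 µM (adjusted p = 0.00725) and 0.35 ± 0.12 at 1 µM (adjusted p = 0.0121) (edgeR's quasi-likelihood test, Benjamini-Hochberg), while 0.21 ± 0.12 and 0.20 ± 0.12 at the lower doses were not called. Library totals gave 0.57, 0.73, 0.76 and 0.70, all called. Without the filter on low counts the calls at 0.5 and 1 µM were lost (0.37 and 0.34), and that at 1 µM also without untreated replicate 1 (0.30, adjusted p = 0.0655). Of its exon bases 7.72% lie under PYGO2 on the same strand and 7.51% under a gene of the opposite strand.

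SOS1 (chr2:38962206-39124345, hg38, minus strand), the exchange factor that loads RAS with GTP, showed no called difference at any dose. In untreated cells it held 68.0, 67.9 and 74.6 CPM. The doses gave 77.5, 89.3 and 52.2 CPM at 0.15 µM, 63.9, 76.7 and 99.2 at 0.25 µM, 62.8, 59.6 and 87.2 at 0.5 µM, and 66.4, 52.4 and 77.9 CPM at 1 µM. The groups overlapped at each dose, and the highest values at 0.25 and 0.5 µM came from the replicates 3 that stood apart. Log2 fold changes were 0.06, 0.19, 0.00 and -0.10 with SE of 0.21, and none was called. The 95% interval of the difference at 1 µM ran from -0.56 to 0.36 in log2 units. Library totals gave 0.43, 0.73, 0.41 and 0.26, of which that at 0.25 µM was called. Without replicates 3 of 0.25 and 0.5 µM the values at these doses were 0.03 and -0.16. SOS1-IT1, a transcript on the same strand, covers 5.46% of its exon bases.

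GAB2 (chr11:78215293-78418348, hg38, minus strand), the scaffold that BCR-ABL uses to reach PTPN11 and phosphoinositide 3-kinase, changed sign along the dose range. It held 119.7, 119.8 and 152 CPM without drug, 173, 194 and 225 CPM at 0.15 µM and 191, 186 and 145 CPM at 0.25 µM. At 0.5 µM it held 89.2, 89.8 and 88.7 CPM and at 1 µM 93.6, 87.4 and 107 CPM. All 0.15 µM libraries were above and all 0.5 and 1 µM libraries below the untreated ones, while 0.25 µM replicate 3 lay within the untreated range. Its log2 fold changes were 0.60 ± 0.15, 0.41 ± 0.15, -0.55 ± 0.15 and -0.44 ± 0.15, with adjusted p of 0.00267, 0.0220, 0.00351 and 0.0142 (edgeR's quasi-likelihood test, Benjamini-Hochberg). From 0.25 to 0.5 µM it fell by 0.96 ± 0.15 (adjusted p = 7.63e-05) and from 0.15 to 1 µM by 1.04 ± 0.15 (adjusted p = 1.68e-05) in log2 units, by the same test. These drops and the rise at 0.15 µM were called under all alternatives tried. The lower level than in untreated cells was not: by library totals the values at 0.5 and 1 µM were -0.16 and -0.09 and were not called, nor were they with at least 10 counts in every library, so against untreated cells the rise at 0.15 µM held under each scaling and the fall did not. The call at 0.25 µM was lost without untreated replicate 1 or 2 (0.35 in each) or 0.25 µM replicate 1 or 2 (0.34 and 0.36), and that at 1 µM without untreated replicate 3 (-0.32) or 1 µM replicate 2 (-0.38).

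INPP5D (chr2:233059967-233207903, hg38, plus strand), the phosphatase that opposes phosphoinositide 3-kinase in blood cells, followed the same course at a far lower level. Its libraries held 6.54, 5.33 and 6.38 CPM without drug, 12.0, 13.6 and 13.9 CPM at 0.15 µM and 8.47, 7.84 and 8.16 CPM at 0.25 µM. They held 1.46, 2.51 and 5.03 CPM at 0.5 µM and 3.19, 2.07 and 3.10 CPM at 1 µM. The groups did not overlap the untreated one at any dose, and 0.5 µM replicate 3 was the highest of its group. The log2 fold changes were 1.11 ± 0.30 at 0.15 µM (adjusted p = 0.00420), -0.99 ± 0.31 at 0.5 µM (adjusted p = 0.00799) and -1.12 ± 0.31 at 1 µM (adjusted p = 0.00352) (edgeR's quasi-likelihood test, Benjamini-Hochberg). At 0.25 µM the value was 0.42 ± 0.30 and was not called. The drop from 0.15 to 1 µM was 2.23 ± 0.31 in log2 units (a level of 0.213 of that at 0.15 µM, adjusted p = 1.02e-05 in edgeR), and INPP5D fell by 1.41 ± 0.30 from 0.25 to 0.5 µM (adjusted p = 0.00147). Without replicates 3 of 0.25 and 0.5 µM the latter was -2.02, and the value at 0.5 µM against untreated cells was -1.58. The call at 0.5 µM was lost with only the compared libraries (-0.93) and with at least 10 counts in every library (-0.69). By library totals the values against untreated cells were 1.46, 0.95, -0.54 and -0.77, of which the 2 positive ones were called and the 2 negative ones were not. The rise at 0.15 µM and both drops between doses were called under all alternatives, as for GAB2. The sums of the T cell markers took a like course, highest at 0.15 µM, and their part in this result was not tested.

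GAB2 and INPP5D had the most similar course of any 2 members after the fusion partners, so their promoters are shown. Over the 15 libraries the Pearson correlation of log2 CPM was 0.970 for BCR and ABL1, 0.903 for GAB2 and INPP5D and 0.890 for PTPN11 and CRKL. These are descriptions over libraries that share doses. The 250 bases before the RefSeq start of each gene (GRCh38.p14, given in the direction of transcription) are printed below, with the ETS core GGAAGT, searched on both strands, in capitals. The INPP5D window lies at chr2:233060092-233060341 on the plus strand, inside the span that GENCODE gives the gene. The GAB2 window lies at chr11:78417821-78418070 on the minus strand, likewise within the annotated span.
INPP5D promoter: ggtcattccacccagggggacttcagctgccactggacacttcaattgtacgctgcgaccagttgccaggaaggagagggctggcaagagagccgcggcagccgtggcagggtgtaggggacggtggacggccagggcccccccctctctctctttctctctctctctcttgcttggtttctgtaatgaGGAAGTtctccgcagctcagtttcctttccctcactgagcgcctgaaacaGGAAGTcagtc
GAB2 promoter: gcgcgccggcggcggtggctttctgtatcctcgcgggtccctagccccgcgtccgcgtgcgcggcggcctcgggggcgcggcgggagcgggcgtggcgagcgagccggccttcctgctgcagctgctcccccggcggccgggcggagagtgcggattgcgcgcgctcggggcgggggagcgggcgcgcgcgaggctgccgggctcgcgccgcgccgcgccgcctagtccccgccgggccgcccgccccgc
INPP5D held 9 CpG and 59.2% G or C in this window and GAB2 51 CpG and 84.0%, beside a median of 11 CpG over 35116 RefSeq promoters of this length. The ETS core occurred at 2 places in INPP5D and not in GAB2, and 19.5% of the 35116 promoters held it. GRB2 and SHC1 held it at 1 place each, and 8 of the 10 members had a RefSeq promoter in the table used. None of these 8 held the STAT motif TTCNNNGAA, which 6.57% of the 35116 promoters held. A match is a run of letters and not a bound site.

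PTPN11 (chr12:112418351-112509918, hg38, plus strand), the phosphatase that GAB2 recruits and that RAS activation needs, fell at each dose. It held 389, 373 and 388 CPM in untreated cells. The treated groups held 198, 239.7 and 198 CPM at 0.15 µM, 187, 199.9 and 176 at 0.25 µM, 226, 263 and 203 at 0.5 µM, and 256, 215 and 262 CPM at 1 µM. All 12 treated libraries were below all untreated ones. The log2 fold changes were -0.86 ± 0.14, -1.03 ± 0.14, -0.73 ± 0.14 and -0.65 ± 0.14, that is 0.553, 0.490, 0.601 and 0.638 of the untreated level, with adjusted p of 5.97e-05, 4.92e-06, 0.000163 and 0.000532 (edgeR's quasi-likelihood test, Benjamini-Hochberg). By library totals they were -0.49, -0.51, -0.37 and -0.30 and remained called. In 27 alternatives the calls at 0.15, 0.25 and 0.5 µM always held. That at 1 µM was lost in 2 of them, with TMM factors of the higher-expressed genes (-0.27) and in limma on unfiltered FPKM (-0.29).

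CRKL (chr22:20917407-20953747, hg38, plus strand), the adaptor best known as a substrate of BCR-ABL, fell at each dose. It held 1191, 1220.0 and 1221 CPM without drug and 714, 749.5 and 678 CPM at 0.15 µM. It held 529.7, 621 and 532 CPM at 0.25 µM, 569.8, 642 and 519 CPM at 0.5 µM, and 622, 529 and 618 CPM at 1 µM. The 3 untreated libraries lay close together and far above all treated ones. The log2 fold changes were -0.76 ± 0.14, -1.11 ± 0.14, -1.07 ± 0.14 and -1.04 ± 0.14, that is 0.590, 0.464, 0.477 and 0.487 of the untreated level, with adjusted p of 0.000209, 2.23e-06, 2.65e-06 and 3.82e-06 (edgeR's quasi-likelihood test, Benjamini-Hochberg). Library totals gave -0.40, -0.59, -0.70 and -0.68. The fall was called at all 4 doses in all 27 alternatives. CRKL and BCR lie on chromosome 22, and neither shares exon bases with another gene.

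CBL (chr11:119206298-119313926, hg38, plus strand), the ubiquitin ligase, held 121, 139 and 135 CPM in untreated cells. It varied widely at the lower doses, with 144, 153 and 86.5 CPM at 0.15 µM and 99.3, 172 and 174 CPM at 0.25 µM, where the groups overlapped. At 0.5 µM it held 181, 201 and 188 CPM and at 1 µM 192, 161 and 199 CPM, all above the untreated libraries. The log2 fold changes were 0.53 ± 0.21 at 0.5 µM (adjusted p = 0.0309) and 0.49 ± 0.21 at 1 µM (adjusted p = 0.0470) (edgeR's quasi-likelihood test, Benjamini-Hochberg). At 0.15 and 0.25 µM they were -0.04 ± 0.21 and 0.17 ± 0.21, not called. Library totals gave 0.33, 0.71, 0.91 and 0.84, with calls from 0.25 µM on. The call at 1 µM was lost without any single untreated library (0.43 to 0.52), without 0.15 µM replicate 1 (0.48), without 0.5 µM replicate 1 or 2 (0.49 each) or without 1 µM replicate 1 or 3 (0.45 and 0.42), and that at 0.5 µM without any single untreated library (0.47 to 0.57) or 0.5 µM replicate 2 (0.48). MCAM, on the opposite strand, covers 4.34% of the exon bases of CBL.

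Neighbouring doses were compared to see where along the range the members changed. Between 0.15 and 0.25 µM, BCR was the only member called, lower by 0.58 ± 0.18 in log2 units (adjusted p = 0.0441, edgeR's quasi-likelihood test, Benjamini-Hochberg), beside 12.3% of all genes (4.96% higher, 7.32% lower). That call was lost in 20 of 27 alternatives, the replicate block among them. Between 0.25 and 0.5 µM GRB2 was higher and GAB2 and INPP5D were lower, 3 members beside 30.4% of all genes. Same-numbered libraries of these 2 groups deviated together, which cannot show that the numbers pair them. With the replicate number as a block in a fit of these 2 groups alone 5 members were called, beside 9935 of the 21562 genes tested there. CBL (0.39, adjusted p = 0.0216) and PTPN11 (0.28, adjusted p = 0.0238) were the additional ones, both higher at 0.5 µM (edgeR's quasi-likelihood test, Benjamini-Hochberg). Between 0.5 and 1 µM 0 members were called by edgeR, DESeq2 or limma and 0 members had an unadjusted p under 0.05. Over all genes edgeR called 0 (0% of 23711, with 372 at an unadjusted p under 0.05), DESeq2 0 and limma on log2(FPKM + 1) 1. The 95% intervals of the difference between 0.5 and 1 µM still reached from -0.29 to 0.35 for CRKL and from -0.83 to 0.56 for INPP5D in log2 units. From 0.15 to 1 µM 4 members were called, with GRB2 and CBL higher and GAB2 and INPP5D lower, beside 44.5% of all genes. CBL rose there by 0.53 ± 0.21 (adjusted p = 0.0463 in edgeR), a call lost in 13 of 27 alternatives. Leaving out 0.15 µM replicate 3 moved it most among single libraries (0.35, adjusted p = 0.167).

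Ratios of 2 genes within a library do not depend on scaling, so they were used to set members beside each other and beside their closest relatives. With 3 libraries against 3, the two-sided exact permutation test cannot give a p below 0.1, and 40 such tests over 10 pairs of genes gave adjusted p of 0.133 at best, so these ratios are descriptions. The count ratio of ABL1 to BCR was 1.33 in untreated cells and 1.31, 1.49, 1.495 and 1.52 in order of dose (the SD of its log2 was 0.03 to 0.07). From 0.25 µM on all its libraries were above the untreated ones. GAB2 outnumbered GAB1, the broadly expressed scaffold of the family, by 4.83 in untreated cells and by 16.3, 11.3, 4.93 and 6.00 with dose. The ratio of CRKL to CRK, its close relative, was 12.9 in untreated cells and 12.9, 9.56, 7.85 and 7.66 with dose. Its libraries overlapped the untreated ones at 0.15 µM and were below them at the higher doses.

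The ratio of SOS1 to SOS2 stood above the untreated libraries at each dose, at 3.11 in untreated cells and 4.49, 4.22, 4.61 and 4.41 with dose. SOS2 itself was lower at 0.15, 0.5 and 1 µM on the TMM scale (-0.50, -0.59 and -0.61, called) but by library totals its values of -0.13, -0.19 and -0.26 were not called. PTPN11 to PTPN6, the second SH2-domain phosphatase, which works as a brake in blood cells, stood at 131 in untreated cells and at 34.7, 26.5, 19.5 and 19.5 with dose, with no overlap. PTPN6 itself rose, from 2.95 ± 0.676 to 12.5 ± 0.946 CPM at 1 µM (log2 fold change 2.08 in edgeR). CBL to CBLB went from 14.2 to 9.55, 7.62, 10.2 and 11.5, and INPP5D to INPPL1 (SHIP2) from 0.0342 to 0.0618, 0.0638, 0.0487 and 0.0467. INPPL1 fell from 178 ± 6.88 to 59.5 ± 9.60 CPM at 1 µM. GRB2 to GRAP2, a relative used mainly in T cells and platelets, moved from 8.09 to 3.09 and 4.79 and then to 66.8 and 89.1. ABL1 to ABL2 was 5.52 in untreated cells and 5.02, 3.50, 5.40 and 5.78 with dose, and overlapped at all doses but 0.25 µM. SHC1 to SHC4 ran from 1116 to 300, 154, 123 and 99.5, but SHC4 was near 0 in untreated cells.

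**Figure D3:**
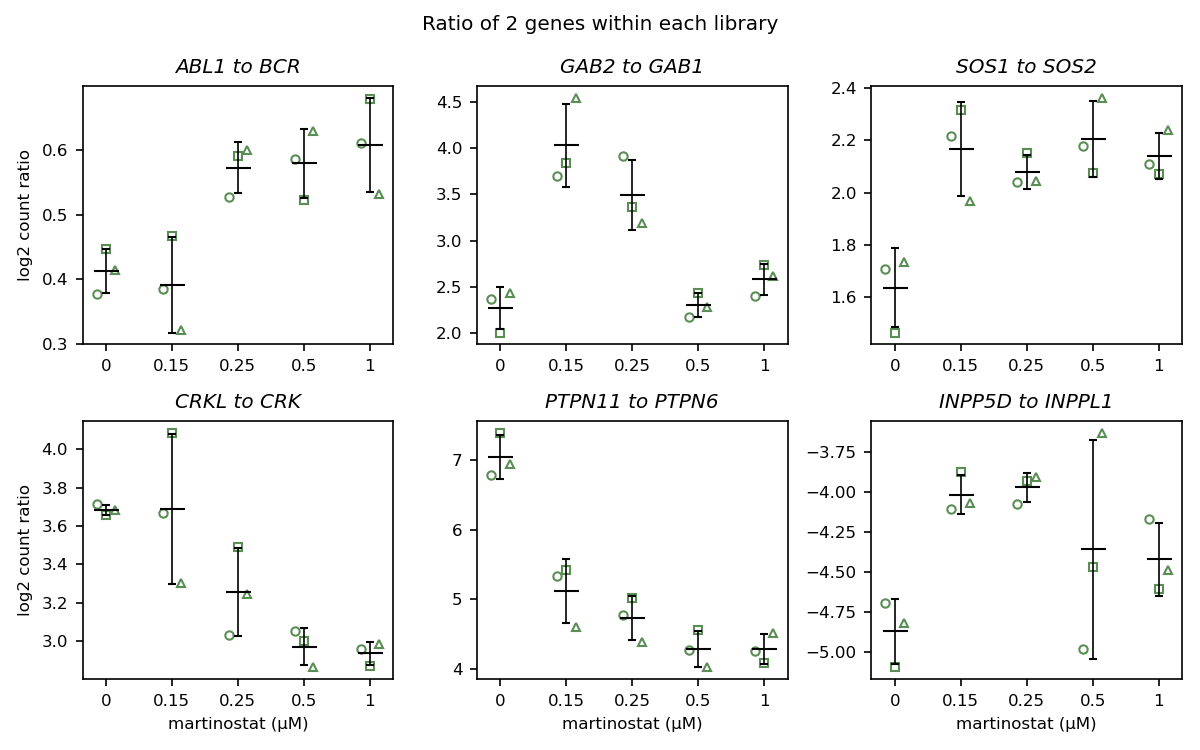
Log2 of the count ratio of 2 genes within each library (y axis, own scale per panel) by martinostat dose in µM (x axis, 0 is untreated). Circles, squares and triangles are replicates 1, 2 and 3, and bars are mean ± SD of 3 libraries. SOS1 to SOS2 stands above and PTPN11 to PTPN6 below the untreated libraries at each dose.

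The genes with a course most like that of a member were sought over the 15 libraries among 10128 genes averaging 10 CPM or more, by Pearson correlation of log2 CPM. For BCR the first were ABL1 (0.970) and WNK2 (0.967), so that of all these genes its fusion partner stood first. Fusion transcripts add to the counts of both BCR and ABL1. For INPP5D, lowest of the members by fold change at 1 µM, they were ESRRB (0.971), CD37 (0.968) and DDR1 (0.965). For CBL, the highest member at 1 µM, they were RALGAPA1 (0.957), MIB1 (0.947) and BBS4 (0.941). These values rest on 5 doses rather than on 15 independent conditions and carry no p.

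Relatives of the members and the pathways behind them were taken as lists. Of all genes 31.9%, 37.4%, 39.4% and 38.8% were higher on the TMM scale in order of dose, and 19.4%, 24.8%, 27.6% and 27.5% lower. By library totals 9582, 11697, 11097 and 10808 of 23711 genes were higher and 2118, 3067, 4713 and 4777 lower. The counts in each of the 4 lists are to be read beside these shares, and lists this short allow no finer reading. Of 15 paralogues 14 were tested, and the higher and lower genes numbered 7 and 3, 8 and 4, 7 and 7, and 7 and 6 in order of dose. Their median log2 fold change was 0.78, 0.73, 0.30 and 0.24. Library totals gave 8 and 2, 9 and 1, 7 and 3, and 7 and 3. GRAP2 rose at 0.15 µM (from 29.3 ± 2.88 to 70.8 ± 14.8 CPM) and fell to 3.20 ± 0.511 CPM at 1 µM (-3.19 ± 0.18, adjusted p = 2.99e-11, edgeR). GAB3 fell from 27.9 ± 1.38 to 2.83 ± 0.594 CPM at 1 µM (-3.30 ± 0.27). CBLC and SHC3 had 0 counts in all untreated libraries. At 1 µM CBLC had 96 counts over the group and SHC3 29, at least 28.3-fold and at least 8.55-fold higher against a floor of 3 counts over the untreated group.

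Of 17 other partners of BCR-ABL, those higher and lower numbered 8 and 6, 6 and 5, 4 and 5, and 5 and 5 in order of dose (medians 0.43, 0.22, -0.14 and -0.15). In either direction 51.2%, 62.3%, 66.9% and 66.2% of all genes were called. Library totals gave 8 and 2, 9 and 2, 7 and 5, and 7 and 4. LYN, a SRC-family kinase that acts beside BCR-ABL, fell from 239 ± 15.8 CPM to 62.0 ± 6.29 CPM at 1 µM (-1.95 ± 0.14, adjusted p = 5.71e-10, edgeR). UBASH3A, a suppressor of T cell receptor signalling, dropped from 15.5 ± 0.323 to 0.421 ± 0.127 CPM, and RIN1, which activates ABL kinases, went from 0.592 ± 0.0972 up to 2.06 ± 0.61 CPM.

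The RAS-MAPK core of 12 genes had 0 higher and 7 lower genes at 0.15 µM, 0 and 8 at 0.25 µM, 1 and 4 at 0.5 µM, and 1 and 5 at 1 µM, with medians of -0.41, -0.48, -0.23 and -0.36 on the TMM scale. Scaled by totals, higher and lower genes numbered 1 and 1, 2 and 2, 3 and 4, and 2 and 3, so most lower calls at the low doses were tied to the scaling. NRAS, a RAS GTPase, fell from 243 ± 10.0 to 109.6 ± 3.70 CPM at 1 µM (-1.15 ± 0.13, adjusted p = 3.27e-07, edgeR), and by library totals its log2 fold change was -0.80. MAPK3 (ERK1) rose from 54.0 ± 2.07 to 96.4 ± 13.4 CPM.

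Of the 15 genes of the PI3K-AKT core those higher and lower numbered 3 and 5, 5 and 7, 6 and 6, and 6 and 6 in order of dose (medians -0.11, -0.43, 0.15 and 0.07). The shares of all genes called in either direction were 51.2%, 62.3%, 66.9% and 66.2%. Library totals gave 6 and 2, 7 and 3, 7 and 5, and 7 and 6. AKT1 fell from 190 ± 7.59 to 47.4 ± 3.40 CPM at 1 µM (adjusted p = 1.02e-09, edgeR). PIK3CG, the catalytic subunit typical of blood cells, fell from 54.2 ± 1.05 to 3.44 ± 0.506 CPM, and PIK3R3, a regulatory subunit, rose from 8.58 ± 1.12 to 76.4 ± 6.93 CPM. By library totals the genes named here from the 4 lists kept their sign and their call at 1 µM.

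**Figure D4:**
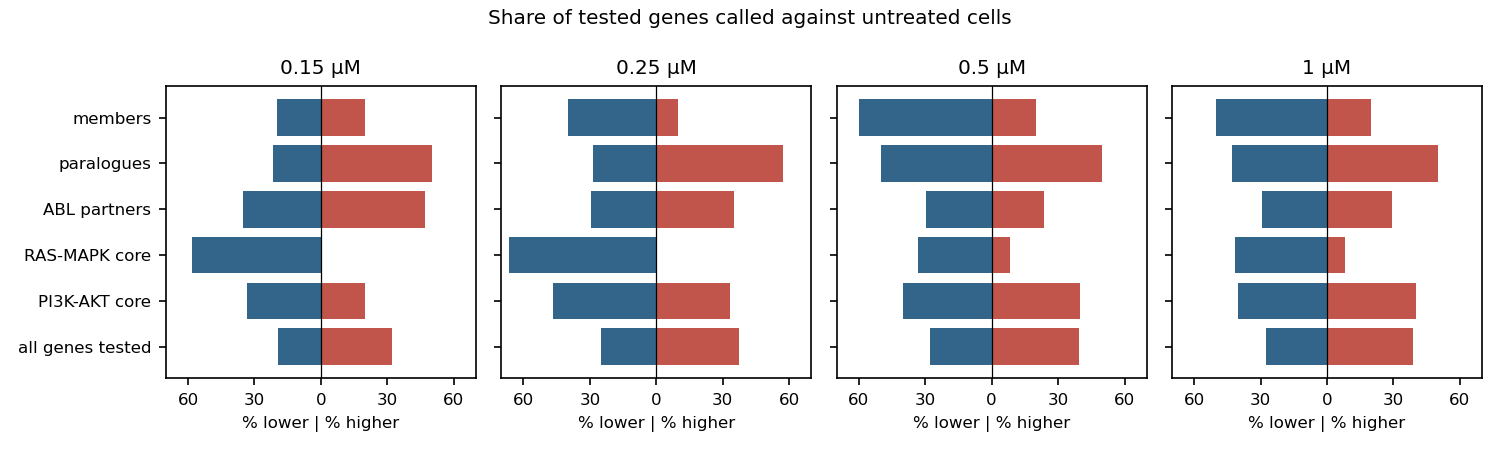
Share of tested genes called lower (blue, to the left) and higher (red, to the right) against untreated cells, in percent (x axis), for the members, 4 lists of related genes and all genes tested, at 4 doses. At 0.15 and 0.25 µM the RAS-MAPK core had no gene called higher on the TMM scale, beside 31.9% and 37.4% of all genes. Library totals called 1 and 2 of its genes higher, beside 9582 and 11697 of all 23711 genes.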

How the data were processed

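K-562 cells were left untreated or treated with martinostat at 4 concentrations, and poly(A) RNA was sequenced as paired ends from directional libraries. Per the labels and the methods of the study, the authors trimmed reads with Trim Galore 0.6.10 and Trimmomatic, aligned them to hg38 with HISAT2 2.2.1, sorted them with SAMtools 1.21 and counted fragments per GENCODE gene with featureCounts 1.5.3, and the deposited table holds these raw counts. The strand setting of the counting is not given in the sources used here. The deposited FPKM, computed by the authors, divide counts by a gene length that equals the genomic span for 8 of the 10 members. They entered alternatives only.

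Symbols were found for 99.69% of identifiers, and positions and exons were taken from GENCODE release 44 on hg38. Counts were fitted with edgeR 4.0.16 (R 4.3.3): filterByExpr, TMM, group as the only term, robust quasi-likelihood F test, Benjamini-Hochberg adjustment over 23711 genes and a threshold of 0.05. The study itself used DESeq2, which was run as an alternative (DESeq2 1.42.0), with limma 3.58.1 on log2(FPKM + 1) and log2(FPKM + 0.1). The fit had 10 residual degrees of freedom and a biological coefficient of variation of 0.228. SE were derived from the F statistic. Intervals of 95% used the 10 residual degrees of freedom alone. The F test also used prior degrees of freedom (median 8.54), so the printed intervals are wider than intervals matched to that test. Within groups log2 CPM correlated at 0.957 to 0.987, and no pair of libraries agreed within sampling noise. Intervals cover the spread between these libraries only.

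Replicate numbers come from the labels, which do not say that they pair groups. Libraries of the same number were compared as deviations from the mean of each group. They correlated at 0.266, 0.268 and 0.579 between 0.25 and 0.5 µM, and at 0.0918 or less in the other pairs of groups. Deviations from a group mean cancel out, so a shift shared by a single same-numbered pair also makes the remaining pairs correlate. Libraries of different numbers were not compared, so these values cannot show pairing. The replicate block in those 2 groups alone was therefore only an alternative.

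Named were all 10 members and, from each list, the 2 highest and 2 lowest genes called at 1 µM whose libraries did not overlap the untreated ones. Some genes that these rules name are not reported here. Ratios had 0.5 counts added to both genes. The members, lists and tests were chosen with earlier results of these data known. Alternatives were other scalings, filters, tools and units, a replicate block, and leaving out each library. Protein sequences were not used here.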

Additional observations from a re-analysis of the deposited data

How the results depend on the processing

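Of the values of single members and ratios recomputed under alternatives, 2007 stayed on the same side of the threshold, 139 lost the call, 56 gained one and 8 turned in direction where the value or its alternative was called. Of the 2007, 110 had the opposite sign while not called. ABL1 at 0.5 µM turned to 0.0016 with TMM factors taken from genes averaging 10 CPM or more. GRB2 turned, at 0.15 µM, to 0.16 in limma on log2(FPKM + 1) and 0.22 on log2(FPKM + 0.1) with and without the filter, and at 0.25 µM to 0.27 by library totals, 0.19 on log2(FPKM + 1) and 0.26 on log2(FPKM + 0.1) with and without the filter. The cause was not tested.

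Members called numbered 8 instead of 5 at 0.25 µM by library totals, beside 14764 instead of 14761 of all 23711 genes. At 0.5 µM they numbered 5 instead of 8 by library totals, with TMM factors taken from genes averaging 10 CPM or more, with at least 10 counts in every library and in the 3 limma fits. In the same order the first fits called 15810 and 16024 of 23711 genes and 9784 of 14096. The limma fits called 13601 and 14434 of 23711 and 13859 of 48321 genes, beside 15872 of 23711 on the TMM scale. At 1 µM the members called numbered 4 instead of 7 with those TMM factors and in limma on unfiltered log2(FPKM + 0.1), and 4 to 8 with 1 library left out. All genes called in the first 2 fits numbered 15840 of 23711 and 13730 of 48321, instead of 15707 of 23711. With 1 library left out they ranged from 14880 of 24858 to 16511 of 24538. From 0.15 to 0.25 µM the count of 1 became 0 with RLE, library totals, those TMM factors, at least 10 counts in every library, the replicate block, only the compared libraries or limma on log2(FPKM + 0.1), 0 to 2 with 1 library left out, and 2 without replicates 3 of 0.25 and 0.5 µM (chosen after seeing the data). Of all genes these fits called, in the same order, 2746, 2567 and 2907 of 23711, 2213 of 14096, 2896 of 23711, 1866 of 21141 and 2721 of 23711. On the TMM scale 2911 of 23711 were called. With 1 library left out this was 1704 of 24815 to 4022 of 24538, and without those replicates 3 it was 3713 of 24200. From 0.25 to 0.5 µM the count of members was 5 instead of 3 with the replicate block in these 2 groups alone, also chosen after seeing the data. Over all genes that fit called 9935 of 21562 instead of 7211 of 23711. From 0.15 to 1 µM the count of members was 2 to 4 instead of 4 with 1 library left out. All genes called then ranged from 8893 of 24809 to 11475 of 24538, instead of 10562 of 23711. The replicate block over all groups changed no other count by over 1.5 times, but ABL1 at 0.5 µM lost its call there. Where 1 library was left out, the lone or paired rest was assumed to vary like the other groups. INPP5D, with 239 to 1127 counts per group, was the member most limited by depth. Over all genes, 7517 of 14096 were called at 0.15 µM with at least 10 counts in every library and 7781 of 48321 in limma on unfiltered FPKM, beside 12148 of 23711. Ratios could not pass a test with 3 libraries against 3.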

Other observations

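The deposited FPKM rank the members differently from values per kilobase of exon, since their length includes introns. Untreated means were 26.6 FPKM for CRKL, 6.42 for SHC1, 3.35 for PTPN11, 2.70 for ABL1, 2.56 for BCR and 2.16 for GRB2. CBL followed with 0.977, GAB2 with 0.513, SOS1 with 0.393 and INPP5D with 0.0329 FPKM. SHC1, whose gene spans 12098 bases, thus stood second by FPKM, while ABL1, which spans 174633 bases, stood second per kilobase of exon. With a value added before the log, this length also shrinks the fold changes of INPP5D, to -0.02 at 1 µM on log2(FPKM + 1) beside -1.12 in edgeR.

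Between 0.25 and 0.5 µM, where GAB2 and INPP5D dropped, 4 of 10 erythroid markers were called lower and 0 higher (edgeR), beside 16% and 14.4% of all genes. GATA1, the master regulator of the erythroid lineage, held 328 ± 5.92 CPM in untreated cells and, in order of dose, 313 ± 29.3, 173 ± 29.1, 15.5 ± 1.23 and 18.9 ± 3.08 CPM. Of the 10 erythroid markers 3, 5, 8 and 8 were called lower than in untreated cells in order of dose, beside 19.4%, 24.8%, 27.6% and 27.5% of all genes. At 1 µM 1 marker was higher, beside 38.8% of all genes. By library totals 3, 4, 7 and 6 markers were lower and 1 was higher at each dose. Of all 23711 genes 2118, 3067, 4713 and 4777 were then lower and 9582, 11697, 11097 and 10808 higher. Of the fibroblast markers, COL1A1 held 4.36 ± 0.954 CPM without drug and 298 ± 45.5 CPM at 0.15 µM, while COL1A2 held 18.9 ± 2.12 and 22.4 ± 1.11 CPM and at 1 µM 9.70 ± 2.32 CPM.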
